A study of Homo sapiens with 40 samples.

Results

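The segment of chromosome 17q12-q21 that carries the HER2 gene ERBB2 was examined in the ATAC-seq peak lists of BT474 and BT474R breast cancer cells. Peaks of all 40 lists that overlapped by at least 1 bp were merged, and regions found in 2 or more lists were kept. The segment comprised every such region with its midpoint between positions 37000000 and 43000000 of chromosome 17 (GRCh38), which gave 589 of 71600 regions. The rest of chromosome 17 held 3250 regions and served as the reference. BT474 is an established HER2-amplified breast ductal carcinoma line, and BT474R is a single clone derived from BT474 cells grown in the presence of the anti-HER2 antibody trastuzumab, so differences between the lines concern 1 clone. Cells of both lines were starved of serum and then given epidermal growth factor (EGF), heregulin (HRG) or vehicle (water) for 1, 12 or 24 h, and baseline cells were collected after starvation alone. Each of the 20 groups had 2 libraries. They were treated in duplicate, but separate cultures are not stated for them, so p-values measure the spread between these libraries, which may be partly technical.

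ERBB2 encodes HER2, a receptor tyrosine kinase with no known ligand of its own that pairs with EGFR, the receptor for EGF, and with HER3 and HER4, the receptors for HRG. In HER2-positive breast cancers a stretch of 17q12-q21 around ERBB2 is present in extra copies, and neighbouring genes such as GRB7, STARD3, MIEN1 and PGAP3 are usually gained with it. ATAC-seq counts the reads that a transposase releases from open chromatin, so a locus with more copies gives more reads even if each copy is equally open. Copy number was not measured here, and the number of copies and the accessibility of each copy cannot be told apart in these data.

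The lists give, for each peak, a score that is the area under the peak caller's significance curve. Because this score depends on the depth of a library, it was turned into a rank percentile within each list, where 100 is the highest peak. A region was present in a library if the library had a peak there, and its percentile was that of its highest peak. The BT474 lists held 47571 to 56846 peaks and the BT474R lists 32479 to 56494. They carry no read totals, so the depth of each library is unknown, and a region without a peak is one where no peak was called rather than one shown to be closed. Of 8 luminal epithelial marker genes, 7 had a promoter peak in all 40 lists, and ESR1 had one in 19 lists of each line. None of 3 basal and none of 4 leukocyte markers had one in all 40, although TP63 had one in 20 BT474 and 15 BT474R lists, and 3 leukocyte markers had none in any list. Of 5 fibroblast and endothelial markers, COL1A1 and CDH5 had a promoter peak in all 40 lists and 2 had none.

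Windows around the summits of 6 regions are shown because ligand and line comparisons described below refer to them. The first 3 are ligand-responsive regions near DDX52, in an intron of GSDMA and in an intron of IKZF3. The other 3 separate the lines, in an exon of GPR179 (peaks in BT474R only), beside JUP (peaks in BT474 only) and in an intron of PIP4K2B (higher in BT474R). All are read from the plus strand of GRCh38, and capitals mark matches to the motifs searched.
DDX52, chr17:37671868-37672018: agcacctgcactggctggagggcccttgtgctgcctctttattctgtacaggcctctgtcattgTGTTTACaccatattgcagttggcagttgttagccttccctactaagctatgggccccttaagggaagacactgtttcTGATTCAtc
GSDMA, chr17:39963986-39964136: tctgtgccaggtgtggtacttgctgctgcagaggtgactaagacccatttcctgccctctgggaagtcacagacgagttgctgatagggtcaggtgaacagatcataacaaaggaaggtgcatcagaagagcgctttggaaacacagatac
IKZF3, chr17:39776363-39776513: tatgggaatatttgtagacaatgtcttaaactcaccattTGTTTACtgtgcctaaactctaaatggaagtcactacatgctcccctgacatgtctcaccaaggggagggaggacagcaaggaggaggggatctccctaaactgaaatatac
GPR179, chr17:38331183-38331333: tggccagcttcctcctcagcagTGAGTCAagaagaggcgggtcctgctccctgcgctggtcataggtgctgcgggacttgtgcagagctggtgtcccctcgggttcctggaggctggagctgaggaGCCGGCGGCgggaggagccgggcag
JUP, chr17:41796079-41796229: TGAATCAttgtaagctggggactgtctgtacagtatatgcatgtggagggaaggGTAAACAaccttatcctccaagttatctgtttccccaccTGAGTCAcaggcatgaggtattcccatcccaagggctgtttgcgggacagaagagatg
PIP4K2B, chr17:38786453-38786603: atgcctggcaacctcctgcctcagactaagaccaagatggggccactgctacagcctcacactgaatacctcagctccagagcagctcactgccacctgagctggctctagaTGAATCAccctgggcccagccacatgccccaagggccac

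The motifs searched on both strands were those of AP-1 (TGANTCA), FOX factors (TGTTTAC), ETS factors (CCGGAAGT), GRHL factors (AACCNGTT) and AP-2 (GCCNNNGGC), and no match was shared by 2 motifs in the windows shown. AP-1 is the JUN and FOS dimer induced by growth factor signals, and FOX factors include FOXA1 of luminal cells. In the windows shown, the DDX52 window held an AP-1 and a FOX match, the JUP window held AP-1 and FOX matches, the GPR179 window held an AP-1 and an AP-2 match, the PIP4K2B window an AP-1 match and the IKZF3 window a FOX match. The GSDMA window held none of the 5. In windows of 100 bp to each side of the summit, AP-1 was matched in 15.4% of the 589 segment regions and 14.5% of the rest of chromosome 17, FOX in 8.15% against 7.05%, AP-2 in 16.1% against 18.8%, GRHL in 2.72% against 3.26% and ETS in 1.53% against 1.38%. These shares are descriptions of letters and say nothing about binding. The median GC content of the same windows was 53.2% in the segment and 55.2% in the rest of the chromosome.

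The segment was dense in peaks, and its peaks were wide and high. It held 98.2 regions per Mb, against 42.1 per Mb in the rest of chromosome 17 and 22.99 per Mb on the other chromosomes. Gene starts were also denser, at 31.5 against 12.9 per Mb on the rest of chromosome 17. Promoter regions, within 1 kb of an annotated start, made up 35.3% of segment regions (208) and 38.1% of the reference. The median region was 917 bp wide against 618.5 bp, and regions covered 16.1% of the segment against 3.51% of the reference. By comparison, regions of 20q13 and 17q22-q24, other stretches often gained in breast cancer, covered 7.34% and 3.26% of their bases at 77.7 and 40 regions per Mb. Of the 17 regions in the genome at least 10 kb wide, 7 lay in the segment. Presence was less distinctive, as 259 segment regions (43.97%) had a peak in all 40 lists against 40.6% of the reference.

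The height of the peaks, meaning the rank percentile of their score, was read in each library. This score is an area, so a wide peak can rank high through its width. Width and height are therefore not separate measures here. The median percentile of segment regions ranged from 58.2 to 65.9 over the 40 libraries with a median of 63.0, and that of the reference from 54.7 to 56.6 with a median of 55.5. The segment lay above the reference in 40 of 40 libraries, by 2.29 to 11.0 percentile points, and the libraries of both lines overlapped in this difference. Promoter regions compared with promoter regions differed by 5.83 to 19.6 points, and the remaining regions by 2.94 to 10.8 points, again with the segment higher in 40 of 40. The peaks of the segment made up 1.02% ± 0.0200 (SD, n = 20) of all peaks in BT474 and 1.07% ± 0.125 (SD, n = 20) in BT474R. Of the highest 1% of peaks they made up 10.2% ± 0.570 and 13.4% ± 2.48. In BT474R the latter share was 19.1% in the shortest list, of 32479 peaks (vehicle, 12 h, replicate 1). It was 11.9% in the longest, of 56494 peaks (vehicle, 1 h, replicate 1), and the part of list length in it was not tested. The highest peak of the list lay in the segment in 39 of 40 libraries, the exception being replicate 2 of BT474 given HRG for 1 h. These are descriptions of 1 place in the genome and carry no test.

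The wide and high peaks were confined mainly to 2 Mb. Among 1428 windows of 1 Mb with at least 20 regions, the windows starting at 38 and 39 Mb ranked 2 and 1 in the share of bases covered, with 30.5% and 39.7%, and 9 and 12 in median percentile. The windows starting at 37, 40, 41 and 42 Mb ranked 592, 647, 613 and 825 in median percentile. In BT474 the median percentile was 78.0 ± 2.12 from 38 to 39 Mb and 77.3 ± 3.27 from 39 to 40 Mb, but 53.4 ± 3.31 from 37 to 38 Mb and 57.5 ± 3.25 from 40 to 41 Mb (SD, n = 20 each). The segment defined by coordinates thus held a high interior of 139 and 164 regions in these adjoining blocks, and lower flanks. In BT474 the blocks from 41 to 42 Mb and from 42 to 43 Mb had means of 49.6 and 53.0, against 55.5 in the reference. In BT474R the flank means were 51.7 (37 to 38 Mb), 45.5 (40 to 41 Mb), 54.7 (41 to 42 Mb) and 44.2 (42 to 43 Mb), against 55.6. Coverage was uneven along the high interior and, in bins of 0.25 Mb, lower from 0.5 Mb beyond ERBB2 on the telomeric side. Peaks covered 17.4% ± 0.808 of bases in BT474 and 21.4% ± 1.72 in BT474R between 0.25 and 0.5 Mb from the ERBB2 start, and 4.84% ± 0.626 and 2.90% ± 0.754 between 0.5 and 0.75 Mb (SD, n = 20 each). From 1 to 0.75 Mb before the start, BT474 libraries lay between 30.4 and 37.2% and BT474R libraries between 35.0 and 44.6%, with overlap. No test was run on these coverage values.

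**Figure D1:**
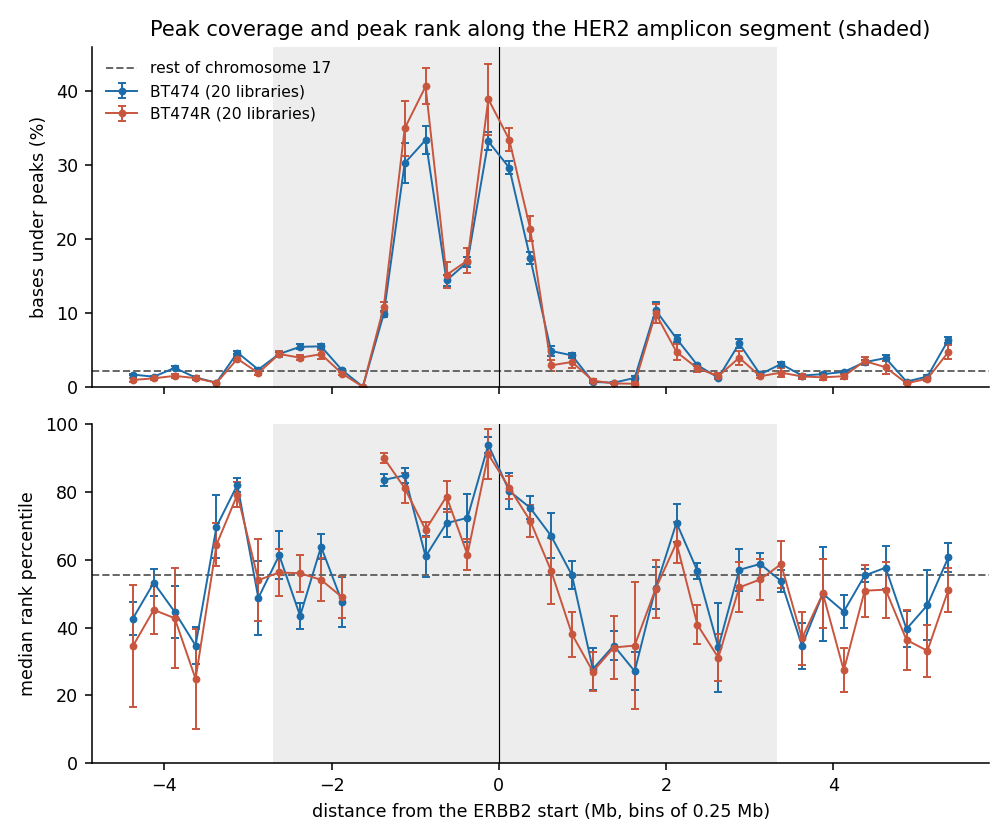
The share of bases under peaks and the median rank percentile of the segment are drawn along distance from the ERBB2 start (Mb), in bins of 0.25 Mb, as means with SD over the 20 libraries of each line. Dashed lines give the rest of chromosome 17 and shading the segment. The share covered in the bin just before the ERBB2 start was 33.2% ± 1.20 in BT474 and 38.9% ± 4.81 in BT474R.

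The ERBB2 core, from NEUROD2 to IKZF3, held the highest regions of all. All 10 genes of this list had a promoter region with a peak in 40 of 40 lists, and for 9 of them its mean percentile was above 95 in both lines. Here and below, a gene with several promoter regions is given by its highest one, which need not hold the gene start. Merged peaks ran over several genes at a time. One region of 34.9 kb (chr17:39698500-39733396) spanned most of ERBB2 and the start of MIEN1, a small membrane-anchored protein gene beside it. A second of 31.3 kb (chr17:39649977-39681277) held the starts of TCAP, a sarcomere protein gene, and PNMT, the enzyme that makes adrenaline. It also lay within 1 kb of a further annotated start of STARD3, a cholesterol transporter of late endosomes. The third of 23.4 kb (chr17:39624617-39647997) held the start of PPP1R1B, a protein phosphatase inhibitor, and the gene start of STARD3. The fourth of 22.2 kb (chr17:39735041-39757225) held the start of GRB7, an adaptor that binds activated HER2. The highest peak of the ERBB2 and MIEN1 region lay at or above the 99.99 percentile in every library of both lines. Such values are at the top of the scale, so a rise there could not be seen as a percentile.

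The length under peaks, which is bounded by the width of the merged region, had a higher mean in BT474R in all 4 regions. In the PPP1R1B region, peaks covered 12.2 to 16.3 kb in the BT474 libraries (14.4 ± 1.06, SD, n = 20) and 18.0 to 22.8 kb in the BT474R libraries (20.6 ± 1.44, SD, n = 20). The lines did not overlap. The region was split into 7 to 10 peaks in BT474 and 1 to 7 in BT474R. In the TCAP, PNMT and STARD3 region the covered length was 24.0 ± 0.763 kb in BT474 and 27.7 ± 2.19 kb in BT474R, and in the GRB7 region 19.6 ± 0.611 and 21 ± 0.466 kb (SD, n = 20 each). For the ERBB2 and MIEN1 region it was 30.8 ± 1.44 against 32.0 ± 2.02 kb, a difference smaller than the spread between libraries. No test was run on the covered length, and the part of library depth in it was not tested. The percentile of the PPP1R1B region rose from 99.6 in BT474 to 99.99 in BT474R on average, a limma difference of 0.42 points (SE 0.13, adjusted p = 0.00602).

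Some smaller regions of the core differed more between the lines. ERBB2 and PGAP3, which encodes a remodelling enzyme of GPI-anchored proteins, share a 2.81 kb region within 1 kb of annotated starts of both (chr17:39686595-39689404). It held the upstream gene start of ERBB2, with median percentiles of 99.7 in BT474 and 99.8 in BT474R. The neighbouring region (chr17:39694696-39697295), with its summit in introns of both genes, held the gene start of PGAP3. It had a peak in 15 BT474 and 20 BT474R lists, at median percentiles of 24.9 and 59.6 where present. Such counts did not pass (Fisher's exact test, adjusted p = 0.0597). In BT474 every library given a ligand had this peak. Those without it were both of baseline, both of vehicle at 12 h and replicate 1 of vehicle at 24 h. A region in an intron of PGAP3 (chr17:39682986-39686355) had a peak in 13 and 19 lists, given as counts only. NEUROD2, a neuronal transcription factor gene, had 2 promoter regions. The first (chr17:39604981-39607624) had a median of 99.7 in both lines. The second (chr17:39607693-39610247) had medians of 76.4 in BT474 and 64.2 in BT474R, with ranges of 64.5 to 83.2 and 37.9 to 83.7 that overlapped, and fell by 11.6 points in the limma fit (adjusted p = 3.79e-05). IKZF3, a lymphoid transcription factor gene that marks the telomeric end of the core, had a promoter region (chr17:39863702-39865536) with medians of 94.8 in BT474 and 90.8 in BT474R. Its means, 91.3 and 92.0, lay the other way, and the limma difference of 0.78 points did not pass (adjusted p = 0.463).

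Genes on the centromeric side of the core were at the same height, and most genes on the telomeric side were not. Of 15 centromeric genes from MLLT6 to CDK12, 14 had a promoter peak in all 40 lists, and all 14 had mean percentiles of 95 or more in both lines. None of the 14 differed between the lines by the limma test, where 32.0% of all regions tested rose and 49.6% fell. Regions this close to the top of the scale can hardly rise, so the 14 cannot be read against those shares. The largest differences were 0.22 points for CWC25, a splicing factor (adjusted p = 0.159), and -0.09 for CACNB1 and RPL19, which share a region (adjusted p = 0.56). Among them are CDK12, a kinase of RNA polymerase II, MED1, a Mediator subunit that binds nuclear receptors, and LASP1, an actin-binding protein gene. STAC2, the exception, had a promoter peak in 19 BT474 and 3 BT474R lists (Fisher's exact test, adjusted p = 1.89e-06). Further toward the centromere, 8 genes from ACACA to SRCIN1 had a promoter region with a peak in all 40 lists. DDX52 (-4.08 points, SE 0.87, limma adjusted p = 0.000202) and SYNRG (-0.36, SE 0.16, adjusted p = 0.0374) fell, and the other 6 did not pass, ARHGAP23 having the highest difference, 0.10 points (adjusted p = 0.52).

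On the telomeric side the height dropped past THRA. Of 22 genes from ZPBP2 to SMARCE1, 14 had a promoter peak in all 40 lists, 7 with means of 95 or more in both lines. MED24, a Mediator subunit, and THRA, the thyroid hormone receptor alpha, were at 99.9 in both lines, and NR1D1, the next gene and a circadian repressor, had means of 87.6 in BT474 and 86.7 in BT474R. Between the lines, 1 of the 14 rose and 6 fell, beside 32.0% and 49.6% of all regions tested, and these counts were not tested against that background. The gene that rose was GSDMA, a pore-forming gasdermin, with a median of 98.5 (98.1 to 98.9) in BT474 and 99.5 (99.4 to 99.7) in BT474R, a difference of 1.03 points (SE 0.14, limma adjusted p = 5.81e-07) with no overlap between lines. CSF3, which encodes a granulocyte growth factor, had the next difference, 0.31 points (adjusted p = 0.0792). RARA, the retinoic acid receptor alpha, had a median of 96.3 (77.7 to 97.8) in BT474 and 74.4 (64.6 to 95.2) in BT474R and fell by 17.4 points (SE 1.37, limma adjusted p = 1.27e-10), with overlapping lines. WIPF2, an actin regulator, fell by 14.7 points (SE 1.93, adjusted p = 4e-07), and TOP2A, the DNA topoisomerase targeted by anthracyclines, fell by 4.67 points (SE 0.66, adjusted p = 1.27e-06). SMARCE1, a chromatin remodeller subunit, had a promoter peak in 20 BT474 and 11 BT474R lists, and MSL1 in 20 and 14, with adjusted p-values of 0.00244 and 0.0287 by Fisher's exact test.

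In the keratin cluster, 3 of 28 type I keratin genes had a promoter region, and none of the other 25 had one. KRT19 and KRT15, which share one, were at 99.9 in both lines, and KRT19 is the type I keratin of simple luminal epithelium. KRT16, a stress keratin of stratified epithelium, had a median of 50 (9.62 to 59.2) in BT474 and 60.6 (20.9 to 69.3) in BT474R and rose by 12.3 points (SE 1.71, limma adjusted p = 9.5e-07), with the lines overlapping. Of 33 genes of 17q21 signalling and metabolism, 27 had a promoter region and 19 had one in all 40 lists, of which 14 fell and none rose, with a median difference of -9.50 points. These 19 genes share 17 regions, of which 12 fell, beside 49.6% of all regions tested and 59.0% on the rest of chromosome 17. DHX58, a cytosolic RNA sensor of the interferon response, had a median of 75.9 (72.9 to 79.3) in BT474 and 46.0 (26.9 to 58.1) in BT474R. Its promoter fell by 30.6 points (SE 1.54, adjusted p = 6.83e-14) with no overlap. NAGLU, a lysosomal enzyme, fell by 15.9 points (SE 3.58, adjusted p = 0.000343), and STAT3, the transcription factor downstream of interleukin-6, by 1.10 points (SE 0.40, adjusted p = 0.0159). ACLY, which makes acetyl-CoA for lipid synthesis, had the highest difference, 0.04 points (adjusted p = 0.899). VPS25 had a promoter peak in 20 BT474 and 5 BT474R lists, and GHDC in 8 and 19 (Fisher's exact test, adjusted p = 3.16e-06 and 0.000953).

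Among promoter regions with a peak in all 40 lists, 55 of 120 in the segment (45.8%) had a mean percentile of 95 or more, against 117 of 714 (16.4%) in the rest of chromosome 17. By gene, those at 95 or more in both lines included 7 of the centromeric end, 14 of the centromeric side, 9 of the core, 7 of the telomeric side, 2 keratins and 1 of 17q21. The lists follow position along the chromosome, and their genes were chosen with earlier results of these data known.

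The comparison of the lines asked whether the segment as a whole differed between trastuzumab-sensitive and trastuzumab-resistant cells. The share of segment regions with a peak was similar in both, 66.7 to 75.9% in BT474 (70.8 ± 2.80, SD, n = 20) and 61.5 to 74.2% in BT474R (68.9 ± 3.69, SD, n = 20). The reference moved further, from 73.2 ± 2.62 to 65.2 ± 8.35%. Presence in the segment was above that in the reference in 1 of 20 BT474 libraries and in 15 of 20 BT474R libraries. The difference, segment minus reference, averaged -2.37 points in BT474 and 3.69 in BT474R, so the lines were 6.06 points apart (permutation test within conditions, two-sided, 100000 resamples, adjusted p = 8e-05 over 2 tests). It kept its direction and passed the test under all 7 alternatives run and without any 1 library, with values of 3.32 to 6.76.

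Within BT474R this difference varied with time. At 12 h it was 14.1 and 9.09 points in the vehicle libraries, 12.0 and 12.3 with EGF and 5.37 and 7.11 with HRG. At 1 h it was -0.161 and 0.0990 with vehicle, 1.32 and 4.07 with EGF, and 1.82 and -0.883 with HRG. At 24 h the HRG replicates stood far apart, at -6.71 and 4.62. The vehicle and EGF lists at 12 h were also the shortest 4 of the line, and the 12 h lists held 32479 and 40331 peaks for vehicle, 38205 and 37476 for EGF and 45808 and 42604 for HRG. With an equal number of top peaks taken from every library, the lines were 6.41 points apart (permutation test, adjusted p = 6e-05). In BT474 all libraries lay between -5.13 and 0.112.

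**Figure D2:**
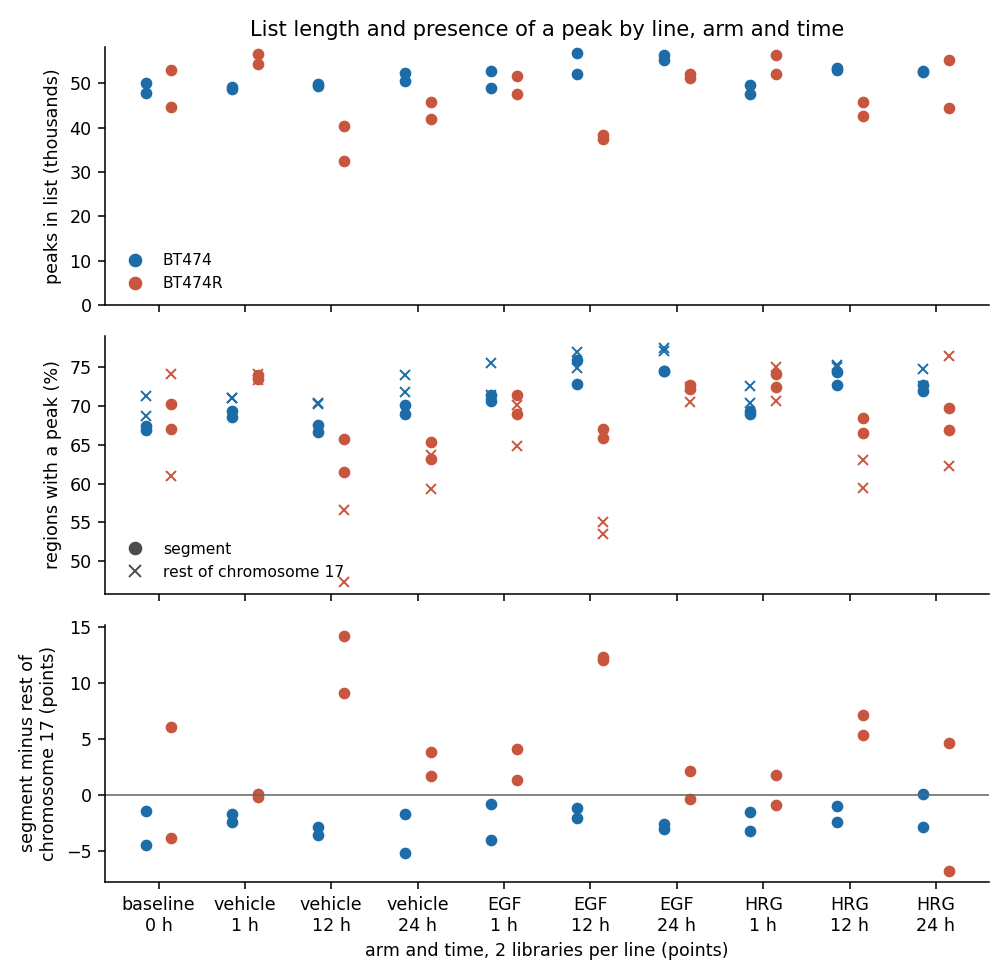
Each point is 1 library, by line, arm and time: the upper panel gives peaks in the list (in units of 1000), the middle the regions with a peak (%), and the lower the segment minus the rest of chromosome 17 (points). In the lower panel the BT474 libraries lie between -5.13 and 0.112, and the BT474R libraries at 12 h between 5.37 and 14.1.

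The height of the segment did not give a stable difference between the lines. The median percentile in excess of the reference was 7.89 ± 1.34 in BT474 and 6.42 ± 2.02 in BT474R (SD, n = 20 each), a difference of -1.47 points (permutation test within conditions, two-sided, adjusted p = 0.00524). It turned to +4.89 points for regions with a peak in all 40 lists, to +4.66 for promoter regions and to +3.88 for peaks with a score of at least 400. The direction therefore depended on which regions entered the median. The reference, also used for the blocks, includes the 840 regions of 17q22-q24. Their median percentile averaged 51.5 in BT474 and 54.8 in BT474R, against 56.8 and 55.9 on chromosome 17 without either segment. A reference without 17q22-q24 was not tested. Block by block, the difference was -12.1 points from 40 to 41 Mb and -8.93 from 42 to 43 Mb (permutation test, adjusted p = 3e-05 over 6 blocks for each, the smallest that the resamples allow here). It was +2.77 from 38 to 39 Mb (adjusted p = 0.00026) and +5.04 from 41 to 42 Mb (adjusted p = 0.00093). It did not pass from 39 to 40 Mb (+1.26, adjusted p = 0.186) or from 37 to 38 Mb (-1.80, adjusted p = 0.0515). The rise from 41 to 42 Mb turned to -0.0464 with a score of at least 400 and to -0.960 with an equal number of peaks, and that from 38 to 39 Mb fell to 0.900 (adjusted p = 0.241, permutation test) in baseline and vehicle libraries alone. In those libraries 41 to 42 Mb gave 4.73 points (adjusted p = 0.185), and the fall from 40 to 41 Mb was -2.44 points (adjusted p = 0.198) with a score of at least 400.

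Single regions were then compared between the lines. By presence, 225 segment regions could reach the threshold, of which 69 (30.7%) were more often present in BT474R and 92 (40.9%) less often (Fisher's exact test, 20 against 20 libraries, adjusted over the genome). Over all 32683 regions that could reach it, the shares were 27.2% higher and 44.6% lower, and on the rest of chromosome 17 they were 24.3% and 49.2%. By percentile, 259 regions with a peak in every list were tested with limma, of which 87 (33.6%) rose and 95 (36.7%) fell. Over all 25166 such regions 32.0% rose and 49.6% fell, and on the rest of the chromosome 24.2% and 59.0%. The median difference was -0.00193 points in the segment, -2.91 on the rest of the chromosome and -1.51 over all. The segment value is that of the CISD3 promoter region, at 99.98 in both lines, where a rise could hardly be seen. It therefore does not compare directly with the other medians.

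The balance of rises and falls differed by block. From 38 to 39 Mb 39 of 74 regions rose in percentile and 10 fell, and from 39 to 40 Mb 32 of 73 rose and 14 fell. From 40 to 41 Mb 4 of 29 rose and 20 fell, and from 42 to 43 Mb 1 of 25 rose and 21 fell. The blocks from 37 to 38 Mb, with 7 rises and 19 falls of 34, and from 41 to 42 Mb, with 4 and 11 of 24, lay between. Many regions from 38 to 40 Mb sit near the top of the scale, where only falls are visible as large values.

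**Figure D3:**
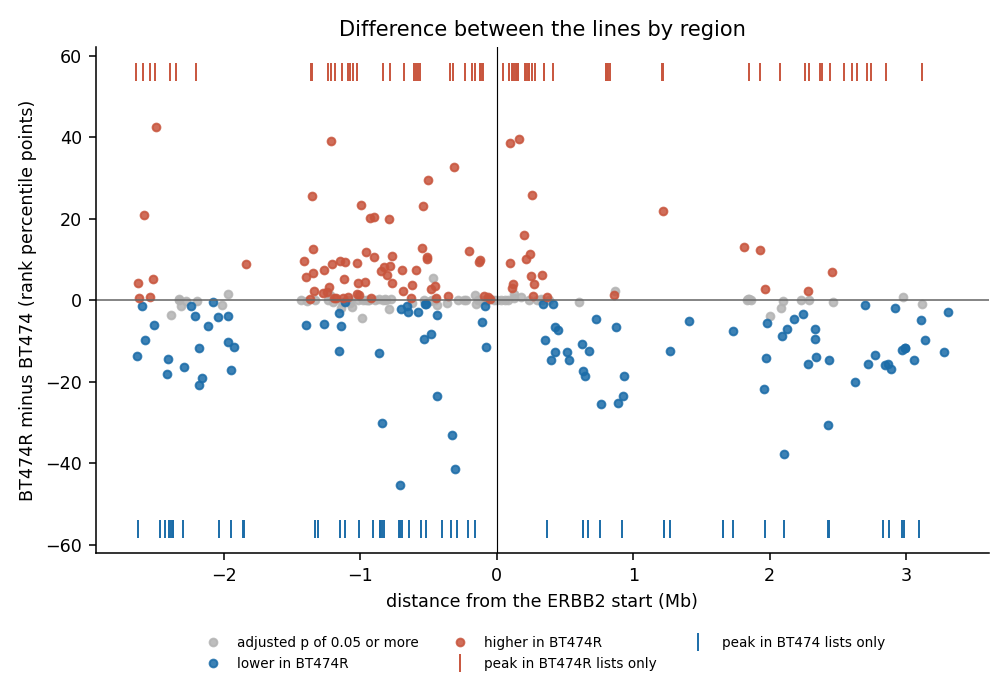
The limma difference in rank percentile between BT474R and BT474 (points) for the 259 segment regions with a peak in all 40 lists, by distance from the ERBB2 start (Mb), with ticks above and below for the 75 BT474R-only and 54 BT474-only regions. Of the 259, 87 rose and 95 fell, and the falls predominate from 40 to 41 Mb and from 42 to 43 Mb.

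The regions that rose most clearly in BT474R lay in or near genes of the high interior, apart from 1. A region in an exon of LRRC3C beside GSDMA (chr17:39943798-39945231) had a percentile of 65.9 (56.5 to 76.7) in BT474 and 92.5 (90.5 to 94.7) in BT474R, given as the median with the lowest and highest library. The lines did not overlap, and the limma difference was 25.7 points (SE 0.65, adjusted p = 1.05e-18). The PIP4K2B region shown above, in an intron of a phosphatidylinositol kinase gene (chr17:38785825-38787494), went from 86.7 (81.0 to 94.9) to 98.6 (98.0 to 99.4), and the lines did not overlap (10.7 points, SE 0.28, adjusted p = 1.44e-18). A region in an exon of ACACA, the acetyl-CoA carboxylase of fatty acid synthesis (chr17:37188017-37188686), went from 30.1 (20.1 to 37.1) to 71.5 (66.5 to 79.1), without overlap (42.4 points, SE 1.23, adjusted p = 9.4e-18). It lies outside the high interior. Introns of CDK12 (chr17:39485007-39486617, 12.1 points) and of the calcium channel subunit gene CACNB1 (chr17:39185652-39188036, 29.6 points) completed the 5 leading rises, with adjusted p-values of 8.89e-17 and 2.68e-16 by limma.

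The leading falls lay in the same blocks, between the high promoters, except for that of DHX58. A region in an intron of FBXL20, an F-box protein gene (chr17:39357154-39358490), had a median of 89.8 (86.1 to 92.4) in BT474 and 55.6 (46.2 to 77.6) in BT474R. The lines did not overlap, and the limma difference was -33.1 points (SE 1.00, adjusted p = 1.78e-17). An intergenic region nearest FBXO47 (chr17:38975369-38976442) went from 71.9 (66.7 to 78.7) to 29.0 (2.74 to 39.8), again without overlap (-45.4 points, SE 1.61, adjusted p = 2.14e-16). A second FBXL20 intron region (chr17:39380078-39381508) changed by -41.3 points and an intergenic region near STAC2 (chr17:39247833-39249320) by -23.4 points, with limma adjusted p-values of 1.19e-13 and 8.18e-14. The FBXL20 promoter itself was at 99.9 in both lines.

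Some regions had peaks in 1 line alone. In BT474R only there were 75 segment regions (12.7%, against 11.2% on the rest of chromosome 17 and 14.0% over all regions), 10 of them in all 20 libraries. In BT474 only there were 54 (9.17%, against 13.05% and 13.9%), 5 of them in all 20. Most were weak, with median percentiles of 11.4 and 12.8. Within 0.5 Mb of the ERBB2 start lay 29 of the BT474R-only (38.7%) and 6 of the BT474-only regions (11.1%), beside 142 of all 589 segment regions (24.1%), a description with no test. The one with the highest percentile was the GPR179 region shown above (chr17:38330103-38332305), in an exon of a retinal receptor gene, with peaks in 20 BT474R and 0 BT474 lists at a median percentile of 92.2 (86.5 to 93.5). An intergenic region near SRCIN1 (chr17:38635746-38636478) had a BT474R-only median of 63.1 (55.9 to 69.5). The 10 regions in all 20 BT474R libraries have the same p, and the first 5 by position are given here. The other 3 were in introns of AATF, ACACA and ARHGAP23 (chr17:37045093-37045852, chr17:37144894-37145463 and chr17:38449188-38449762), at medians of 47.7, 29.9 and 34.9. In the reverse direction, the intergenic region near JUP, the gene of the junction protein plakoglobin (chr17:41795852-41796494), had a median of 55.3 (39.2 to 65.5) in 20 BT474 lists and no peak in BT474R. The other 4 in all 20 BT474 libraries lay within or near ACACA and AATF, at medians of 25.4 to 45.2. Each of these 10 gave the smallest p that 20 against 20 libraries allow (Fisher's exact test, p = 1.45e-11, adjusted p = 1.91e-10).

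The ligand comparisons asked whether EGF or HRG moved the segment relative to the rest of the chromosome. EGF and HRG were each compared with the same 6 vehicle libraries of a line, 2 at each time, so their results are not independent. Excess presence and excess percentile did not pass the exact permutation test in either line after adjustment over 8 tests, where the smallest adjusted p that 1 effect alone could reach was 0.0741. In BT474 the presence changed by 0.605 points with EGF (exact permutation test, adjusted p = 0.519) and 1.11 with HRG (adjusted p = 0.385), and the percentile by -0.624 (adjusted p = 0.494) and -1.17 (adjusted p = 0.385). In BT474R the presence changed by 0.470 points with EGF (exact permutation test, adjusted p = 0.704) and -2.90 with HRG (adjusted p = 0.385). The excess percentile of BT474R was 2.29 to 8.53 with vehicle and 4.93 to 9.90 with EGF, overlapping ranges that differed by 2.71 points (exact permutation test, p = 0.0185, adjusted p = 0.148), and HRG gave 1.00 point (adjusted p = 0.385). The difference between the lines in the EGF effect on excess percentile was 3.34 points (exact permutation test, adjusted p = 0.0316 over 4). It missed the threshold without any 1 of 12 of the 24 libraries, and it was -1.09 points with a score of at least 400 and -0.490 for regions in all 40 lists. The other 3 differences between lines did not pass (exact permutation test, adjusted p = 0.923 for EGF presence and 0.107 for HRG presence and percentile). With 216 arrangements in a line the smallest p that could be reached was 0.00926.

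Calls of single regions were near the background. With EGF in BT474, 8 of 42 testable segment regions were more often present and 0 less often (Fisher's exact test, 6 against 6, unadjusted), against 18.3% and 0.690% of all regions tested. With HRG in BT474 the counts were 7 and 1 of 41, against 20% and 4.69%. In BT474R they were 3 and 1 of 43 with EGF, against 3.67% and 0.411%, and 1 and 0 of 42 with HRG, against 2.31% and 0%. Adjusted p-values left 1, 2, 0 and 0 regions in these 4 comparisons. By percentile, limma called 53 rises and 3 falls of 326 with EGF in BT474, against 16.8% and 0.964% of all regions, and 46 and 15 of 326 with HRG, against 12.4% and 5.30%. In BT474R it called 34 and 11 of 303 with EGF, against 9.37% and 4.34%, and 20 and 0 of 303 with HRG, against 7.54% and 0.0318%. As shares of those tested in the segment the rises were 16.3%, 14.1%, 11.2% and 6.60%. The HRG count in BT474R rose to 49 without replicate 2 of vehicle at 12 h, and was 9 to 12 without either vehicle library of 1 h, replicate 2 of HRG at 1 h, replicate 1 of HRG at 12 h or replicate 1 of vehicle at 24 h.

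The region with the clearest response in both lines was intergenic and nearest to the start of DDX52, an RNA helicase gene (chr17:37671467-37672431, shown above). In BT474 its percentile was 50.2 (46.5 to 62.6) with vehicle, 79.9 (76.3 to 85.8) with EGF and 83.3 (79.2 to 85.9) with HRG, given as the median with the lowest and highest of 6 libraries. Neither ligand overlapped vehicle. In BT474R it was 48.9 (25.5 to 73.8), 82.2 (78.0 to 84.5) and 78.2 (68.3 to 80.4), and HRG overlapped vehicle. The 2 vehicle libraries of BT474R stood at 73.8 and 69.5 at 1 h, at 52.6 and 45.2 at 12 h and at 25.5 and 33.1 at 24 h, and both ligands lay above them at each time. In BT474 EGF gave 27.6 points (SE 2.45, limma adjusted p = 3.74e-05) and HRG 30.0 points (SE 2.45, adjusted p = 1.94e-05). In BT474R EGF gave 32.1 points (SE 1.82, limma adjusted p = 7.94e-06) and HRG 25.7 points (SE 1.82, adjusted p = 0.000107).

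A region in an intron of GSDMA (chr17:39963764-39965103, shown above) started from different levels in the lines. In BT474 it had a peak in 0 of 6 vehicle libraries, 3 of 6 with EGF and 5 of 6 with HRG (Fisher's exact test for HRG, p = 0.0152, adjusted p = 0.0615), which did not pass after adjustment. In BT474R it was present in every library, at 28.1 (14.1 to 34.3) with vehicle, 72.4 (42 to 85.4) with EGF and 50.1 (38.6 to 59.0) with HRG. Both ligands lay above all vehicle libraries. The differences were 41.1 points for EGF (SE 2.67, limma adjusted p = 1.86e-05) and 23.6 for HRG (SE 2.67, adjusted p = 0.00142). With EGF the values were 42 and 45.9 at 1 h, 72.1 and 72.8 at 12 h and 81.2 and 85.4 at 24 h.

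A pair of regions in introns of SRCIN1, a SRC kinase inhibitor gene, rose. The first (chr17:38533123-38535150) was in BT474 at 69.2 (63.0 to 88.5) with vehicle, 87.8 (86.2 to 88.7) with EGF and 87.4 (86.3 to 89.2) with HRG. The vehicle libraries were at 88.5 and 88.1 at 1 h, as high as with either ligand, and at 63.0 to 69.7 at 12 and 24 h. The limma differences over the 3 times were 13.6 points for EGF (SE 1.11, adjusted p = 2.43e-05) and 13.7 for HRG (SE 1.11, adjusted p = 1.83e-05). In BT474R the same region was at 71.6 (63.7 to 76.9) with vehicle, 87.6 (85.6 to 92.7) with EGF and 85.7 (72.6 to 88.4) with HRG, and HRG overlapped vehicle. The limma differences there were 17.7 (SE 1.84, adjusted p = 0.000215) and 12.0 points (SE 1.84, adjusted p = 0.00508). The second (chr17:38576936-38581009) was at 79.8 (76.0 to 83.8) with vehicle and 88.2 (86.8 to 89.1) with EGF in BT474, without overlap (8.06 points, SE 0.71, limma adjusted p = 3.44e-05), and in BT474R it stood at 93.5 (84.4 to 96.2) and 96.0 (95.7 to 99.5), where the ranges met (5.16 points, SE 1.11, adjusted p = 0.0105).

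An intron of IKZF3 (chr17:39775958-39778253, shown above) moved the other way. In BT474 it was at 82.5 (79.9 to 88.1) with vehicle, 75.8 (71.9 to 79.2) with EGF and 71.7 (65.7 to 75.4) with HRG. Neither ligand overlapped vehicle, and limma gave -7.51 points for EGF (SE 1.71, adjusted p = 0.0102) and -11.8 for HRG (SE 1.71, adjusted p = 0.000688). In BT474R the region was lower and had a peak in 6 of 6 vehicle, 2 of 6 EGF and 4 of 6 HRG libraries. Over all conditions it had a peak in 20 BT474 and 14 BT474R lists, at median percentiles of 78.2 and 37.3. In BT474 EGF lowered a region in an exon of P3H4 (chr17:41811243-41812739) by 4.80 points (SE 1.13, limma adjusted p = 0.0122), and HRG lowered an FBXL20 intron region (chr17:39372617-39373819) by 5.90 points (SE 0.98, adjusted p = 0.00165). In BT474R EGF lowered 2 regions in introns of ACACA (chr17:37168715-37169459 and chr17:37273405-37274926) by 5.08 and 18.6 points (limma, adjusted p = 0.00112 and 0.00114).

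**Figure D4:**
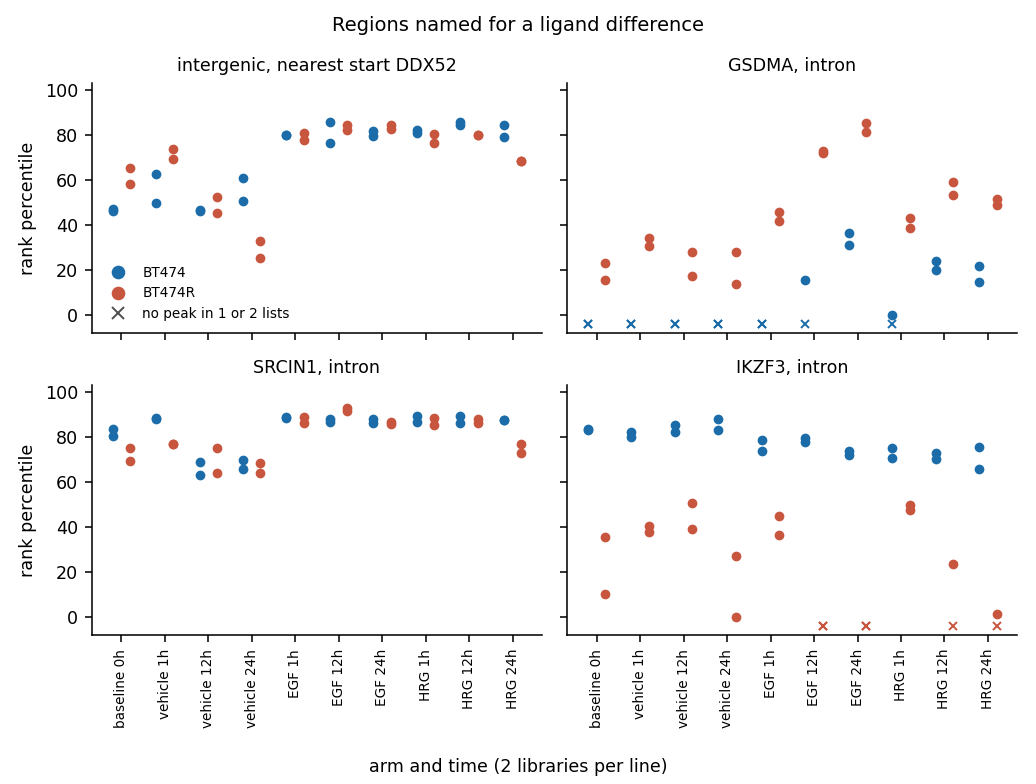
Rank percentile of the DDX52, GSDMA, SRCIN1 and IKZF3 regions in each library (points) by line, arm and time, with a cross where no peak was called. The DDX52 region lies above vehicle with both ligands at each time, the GSDMA region is missing from all BT474 vehicle libraries, and the IKZF3 region lies below vehicle in BT474 with both ligands.

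Changes of presence with a ligand were few. In BT474 a region in an intron of PIP4K2B (chr17:38783303-38783552) had a peak in 6 of 6 libraries with EGF and 0 of 6 with vehicle (Fisher's exact test, p = 0.00216, adjusted p = 0.0335). Its percentiles with EGF were 0.373 to 18.0, near the floor below which no peak is listed. With HRG a region in an intron of TNS4, a focal adhesion protein gene (chr17:40486079-40486405), was gained in the same way, 6 of 6 against 0 of 6, and a region in an intron of ACACA (chr17:37317832-37318431) was lost, 0 of 6 against 6 of 6 (Fisher's exact test, adjusted p = 0.0241 for both). The TNS4 peaks lay at percentiles of 1.14 to 19.4 with HRG, also near the floor, and the ACACA peaks at 12.8 to 41.4 with vehicle. In BT474R an intergenic region near MRPL45 (chr17:38269409-38269963) had a peak in 0 of 6 vehicle libraries and in 6 of 6 with either ligand, which did not pass after adjustment (Fisher's exact test, adjusted p = 0.217 for EGF and 0.579 for HRG). EGF in BT474 also gave 5 of 6 against 0 of 6 at an intergenic region near FBXO47 (chr17:38996228-38996919; adjusted p = 0.0796). EGF in BT474R gave 5 of 6 against 0 of 6 in an intron of SRCIN1 (chr17:38594468-38595291) and 1 of 6 against 6 of 6 in an intron of ACACA (chr17:37177264-37177490), neither of which passed after adjustment (Fisher's exact test, adjusted p = 0.372 for both).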

How the data were processed

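ATAC-seq peak lists of 40 libraries were analysed, 2 for each of 20 groups of line, arm and time, with groups taken from the sample labels. Per the labels and the study's methods, the authors checked reads with FastQC, trimmed adapters with Trim Galore 0.6.6, mapped to GRCh38 (hg38, GRCh38.p13) with BBMap and called peaks in each library with Genrich after removing mitochondrial reads and blacklisted regions. For further Genrich options, nothing is given in the sources used here. The deposited score of a peak is the area under its significance curve, and its lowest value was 200 in all lists, so weaker peaks are missing. The deposited −log10 p-values were not used. Read counts and depths were not analysed here.

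Peaks of chromosomes 1 to 22 and X overlapping by 1 bp were merged, and regions in 2 or more lists were kept. Scores were ranked within a list (ties averaged), and a region took the percentile of its highest peak in a library. Genes came from GENCODE release 44, promoters were regions within 1 kb of a start, and sequences came from GRCh38. In the gene lists, a gene with several promoter regions was given by its highest one. Library values were compared by permutation within conditions (100000 resamples) or exactly within time points, and regions by Fisher's exact test on presence and by limma on the percentile of regions with a peak in every list fitted, with Benjamini-Hochberg adjustment over all regions tested. Ligand presence calls are unadjusted and were read against the share called over all regions. In simulated data, 96% of 200 regions with a presence difference of 80 points between the lines were recovered over 71600 regions, 90% of 200 percentile differences of 10 points between the lines and 31.5% of those between EGF and vehicle in BT474, the latter both over 25166 regions. The share of calls that were false was 1.03%, 9.09% and 5.97%, in the same order. The highest Jaccard index of covered bases over 780 library pairs was 91.2%, so no library was a copy of another.

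Members, gene lists, tests and naming rule were chosen with earlier results of these data known. The rule named the promoters of the ERBB2 core genes, up to 5 called regions a direction between the lines and up to 2 for each ligand by smallest p, the 5 highest and 3 widest regions, and the 2 largest promoter differences a direction in other lists. Some further genes of the lists, such as NR1D1, TOP2A, STAT3 and those called by presence, were named after their values were seen. One gene of the lists is not reported here. Alternatives were a score of at least 400, equal numbers of top peaks, regions in 4 or more lists, peaks trimmed to 400 bp, a replicate block, another reference, regions in all 40 lists, promoters alone or left out, log2 scores, baseline and vehicle libraries alone and each library left out. Trimming moved the ends of peaks only, and the ranks stayed those of the full peaks. The tools were limma 3.58.1 in R 4.3.3, and scipy 1.17.1, numpy 2.4.6, matplotlib 3.10.9 and pandas 2.3.3 in Python 3.11.15.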

Additional observations from a re-analysis of the deposited data

Results flagged for a closer look

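The share of the segment under peaks in BT474R given HRG for 24 h, replicate 1, was 10.0%, below the other HRG libraries of that line, at 10.8 to 11.1%. It was flagged because its distance from them exceeded Dixon's critical value for 6 libraries. This was seen in 1 of 24 checks, and chance flags about 1 in 20. Several measures were checked in the same groups of libraries, so the checks are not independent. The same library had the lowest excess presence of all, -6.71 points. The EGF effect on excess percentile was 3.34 points higher in BT474R than in BT474 (exact permutation test, adjusted p = 0.0316) and was flagged because this difference between the lines passed its test, which it missed without any 1 of 12 of the 24 libraries.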

How the results depend on the processing

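The difference between the lines in excess presence kept its direction and passed its test under every alternative run. So did 24 percentile differences of 19 single regions named from limma, wherever they could be fitted. These regions were picked for their small p in the same lists, so this is not independent support. Of the 24, 17 could be fitted with equal numbers of top peaks and 15 with a score of at least 400. Other values moved, and the cause was not tested. With a score of at least 400 the line difference in excess percentile was 3.88 points, and its blocks were 4.16 (37 to 38 Mb), -2.44 (40 to 41 Mb) and -0.0464 (41 to 42 Mb). The ligand effects on excess percentile were 0.1704 (EGF, BT474), -0.924 (EGF, BT474R) and -1.75 (HRG, BT474R), and the differences of effect between the lines 0.711 (EGF presence), -1.09 (EGF percentile) and -1.52 (HRG percentile). Presence calls were 1 (EGF, BT474), 4 (HRG, BT474) and 2 (HRG, BT474R).

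With equal numbers of top peaks the line difference was 1.36, its blocks 2.67 (37 to 38 Mb), -1.90 (39 to 40 Mb) and -0.960 (41 to 42 Mb), the EGF effect in BT474 0.949, and the EGF differences between the lines 0.151 (presence) and 0.935 (percentile). Presence calls were 1, 3 and 2 in the same order, and percentile calls 36 (EGF, BT474), 24 (EGF, BT474R) and 4 (HRG, BT474R). Regions in 4 or more lists gave a line difference of -0.987. Trimmed peaks gave -0.918, with blocks of -3.48 (37 to 38 Mb) and 1.79 (39 to 40 Mb), EGF effects in BT474 of -0.810 (presence) and 0.452 (percentile), HRG effects in BT474 of -0.764 and 0.6253, an EGF presence effect in BT474R of -0.908, differences between the lines of 1.39 (EGF percentile) and -0.0326 (HRG percentile), 256 regions called by presence between the lines and 2 for HRG in BT474R.

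Regions in all 40 lists gave a line difference of 4.89 and blocks of 2.92 (37 to 38 Mb), 6.52 (39 to 40 Mb) and 0.219 (41 to 42 Mb). Their ligand effects were 1.40 (EGF, BT474), 1.67 (HRG, BT474) and -1.27 (HRG, BT474R), with differences between the lines of -0.490 (EGF) and -2.94 (HRG). Promoters alone gave a line difference of 4.66 and the other regions -0.760. The reference outside chromosome 17 gave -1.96 for 37 to 38 Mb and 0.486 for the EGF presence difference between the lines. Baseline and vehicle libraries alone gave 0.900 (38 to 39 Mb), -0.615 (39 to 40 Mb), 4.73 (41 to 42 Mb) and 87 regions called by presence. Adjusted p-values gave 1, 2, 0 and 0 ligand presence calls.

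Replicate numbers did not pair the libraries: same-numbered libraries correlated at a median of -0.00168 in BT474 and 0.00634 in BT474R, over 0.1 in 4 and 10 of 45 pairs. With a replicate block the EGF percentile difference between the lines stayed at 3.34 points but missed the threshold (exact permutation test, adjusted p = 0.0840), and no other call changed. Fisher's exact tests have no blocked fit.

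Leaving out each library in turn gave -0.372 to 1.31 for the EGF presence effect in BT474R, negative only without replicate 2 of vehicle at 12 h. The EGF difference between the lines ranged from 2.86 to 3.82 in percentile and from -0.977 to 0.706 in presence, the HRG presence difference from -5.90 to -2.12 (past the threshold without replicate 2 of BT474R HRG at 24 h), and 37 to 38 Mb from -2.10 to -1.51, past the threshold without any 1 of 15 of the 40 libraries. Presence calls ranged from 4 to 7 (EGF, BT474R), 8 to 13 (HRG, BT474) and 1 to 3 (HRG, BT474R), and percentile calls for HRG in BT474R from 9 to 49. Peaks below the score of 200, and so weak regions, are beyond these lists.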
